A study of Mus musculus with 3 samples.

Results

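C2cd4a and C2cd4b, 2 of the 31053 genes in the deposited table of mouse islet cells, were described across cell types and libraries. They were selected on their values: their level and detection in beta cells and other cells of each library had been seen to differ, so those values are a description and carry no test. Both genes encode small proteins of the C2-domain family. The human proteins were first described as nuclear factors that endothelial cells make in response to inflammatory cytokines. In people, variants beside C2CD4A, C2CD4B and their neighbour VPS13C are associated with type 2 diabetes and with proinsulin levels. In mouse beta cells C2cd4a has been described as a target of FoxO1, the transcription factor that insulin signalling keeps out of the nucleus.

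The islets were those of male mice of the C57Bl6/J strain, all retired from breeding at 7 to 8 months of age, and the labels name no gene alteration. There were 3 groups of 1 droplet-based 10x Genomics 3' library each: recovered (mice given S961 whose pumps were later removed), S961 (pumps delivering S961, a peptide that blocks the insulin receptor, with a dose given as 20 nM per week for 2 weeks) and control (pumps without S961). Neither the time allowed for recovery nor the number of mice per library is given in the sources used here. After isolation, the islets of every group spent a night in culture and were then dissociated with TrypLE, so all 3 libraries carry that handling.

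With 1 library per group, each difference below is one between libraries, with no replicate check and no test across mice. The 95% intervals are exact and cover counting error only, and cells were not treated as replicates. After filtering, 3513 recovered, 3430 S961 and 4267 control cells were analysed. Of these, 2186 recovered, 1605 S961 and 2978 control cells were beta-like, with medians of 10106, 13394 and 7451 unique molecular identifiers (UMIs) per cell in that order. All 9 beta cell markers were detected in each library, and insulin took 31.1% of the beta-like UMIs in recovered, 33.5% in S961 and 30.7% in control. Alpha cell markers summed to 830 CPM (UMIs per 1000000 of the class) in recovered beta-like cells, 1307 CPM in S961 and 704 CPM in control, and acinar markers to 154, 273 and 69.8 CPM in the same order. Ductal markers (672, 913 and 1298 CPM) and PP cell markers (965, 1337 and 1431 CPM) were lowest in recovered and highest in control, as C2cd4a was. Their part in the results was not tested. The libraries shared 11 to 29 barcode sequences in pairs.

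The proximal promoters of the pair are shown because the members moved apart between libraries while lying next to each other in the genome. They are the 250 bases before each gene's start (RefSeq, GRCm38.p6), written 5′ to 3′ on the strand of the gene, with the letters TATAAA in capitals.
C2cd4a, chr9:67832331-67832580, minus strand: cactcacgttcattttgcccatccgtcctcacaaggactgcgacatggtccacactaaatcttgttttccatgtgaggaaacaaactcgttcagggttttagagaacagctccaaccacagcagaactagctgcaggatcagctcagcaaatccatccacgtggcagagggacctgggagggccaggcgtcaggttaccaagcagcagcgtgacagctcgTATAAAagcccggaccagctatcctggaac
C2cd4b, chr9:67759187-67759436, plus strand: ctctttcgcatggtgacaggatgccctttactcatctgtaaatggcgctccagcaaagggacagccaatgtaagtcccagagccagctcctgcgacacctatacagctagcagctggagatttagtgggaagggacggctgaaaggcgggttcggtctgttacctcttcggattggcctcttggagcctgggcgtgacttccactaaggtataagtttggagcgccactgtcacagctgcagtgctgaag

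The promoters had little sequence in common. Their longest shared run was 8 bases, GC content was 52.8% for C2cd4a and 54.4% for C2cd4b against a median of 52.4% over 32851 promoters, and each held 9 CpG dinucleotides. TATAAA lay 30 to 25 bases before the start of C2cd4a on the gene's own strand, and 13.6% of all promoters held these letters on either strand within the 300-base window from 250 bases before to 50 after the start. In that window no match was found on either strand of C2cd4a or C2cd4b for TGTTTAC (a FoxO motif, in 3.65% of promoters), GGNNTTTCC (NF-kB, 5.82%), TGACGTCA (the cyclic AMP response element, 1.79%), TGANTCA (AP-1, 7.81%), TGCTGAC (MAF, 4.67%) or CTAATG (homeobox factors, 7.36%). None of these letters is in these windows, which says nothing of binding elsewhere.

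C2cd4a (ENSMUSG00000047990.6) lies on the minus strand of chromosome 9 at 67830489 to 67832330, and C2cd4b (ENSMUSG00000091956.2) on the plus strand at 67759437 to 67760930 (GENCODE M21, GRCm38). Each gene has 2 exons and 1 short intron, with coding sequence of 1002 bases in C2cd4a and 1020 in C2cd4b. A gap of 69558 bases with 0 protein-coding genes separates them, and Vps13c, which encodes a lipid transfer protein, starts 8065 bases beyond C2cd4a. The genes are close copies. Of the 1371 words of 25 bases in the C2cd4a transcript, 301 also occurred in C2cd4b, and the longest shared run was 104 bases. Near the 3' end, where this chemistry places its reads, 134 of 476 words were shared over the last 500 bases and 1 of 226 over the last 250. How reads that match both genes were counted is not given in the sources used here, so part of either count may belong to the other gene. A noncoding RNA on the opposite strand, M5C1000I18Rik, overlaps C2cd4b by 794 bases. It held 12 UMIs in recovered, 27 in S961 and 15 in control beta-like cells, and reads of the overlap cannot be assigned if strand was not used in counting.

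In beta-like cells C2cd4a was lowest after recovery, intermediate under S961 and highest in control, whereas C2cd4b was highest under S961. C2cd4a stood at 17.9 CPM in recovered (interval 16.2 to 19.7, 405 UMIs), 25.2 CPM in S961 (23.2 to 27.4, 572 UMIs) and 54.8 CPM in control (51.8 to 57.9, 1249 UMIs). The 3 intervals do not overlap. C2cd4a was thus 2.17-fold lower in S961 than in control, a log2 ratio of -1.12 (-1.26 to -0.97). In recovered it was 1.41-fold lower than in S961 (-0.50, -0.68 to -0.31) and 3.06-fold lower than in control (-1.61, -1.78 to -1.45). Summed over all beta-like cells, the level in the recovered library therefore lay farther from control than the S961 level did. In the bins between 5000 and 20000 UMIs per cell, the intervals of recovered over S961 included 0.

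C2cd4b stood at 250.5 CPM in recovered (5666 UMIs), 269.6 CPM in S961 (6109 UMIs) and 214.7 CPM in control (4894 UMIs). Its log2 ratio was 0.33 in S961 over control (0.27 to 0.38), -0.11 in recovered over S961 (-0.16 to -0.05) and 0.22 in recovered over control (0.17 to 0.28). Both libraries from S961-treated mice were above control, by less than the C2cd4a differences. The sign in recovered over S961 turned to 0.037 when the CPM of each cell was averaged.

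The balance of the 2 genes differed between libraries while their sum differed little. Since 3' counting gives each transcript 1 tag, UMIs were compared between genes without division by length. Beta-like cells held 14.0 C2cd4b UMIs per C2cd4a UMI in recovered, 10.7 in S961 and 3.92 in control. C2cd4a made up 6.67% of the UMIs of both genes in recovered (6.06 to 7.33), 8.56% in S961 (7.90 to 9.26) and 20.3% in control (19.3 to 21.4). The summed level was 268 CPM in recovered, 295 CPM in S961 and 270 CPM in control, written here to 3 digits. In each library C2cd4b was the more abundant of the 2.

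The other family members and Vps13c were low or flat. C2cd4c, a paralog on another chromosome, stood at 8.40 CPM in recovered, 3.44 in S961 and 4.96 in control. It was lower in S961 than control (log2 ratio -0.53, -0.96 to -0.10) and higher in recovered than S961 (1.29), an order unlike that of C2cd4a. C2cd4d held 2.21, 2.34 and 1.58 CPM in the same library order, with intervals of its ratios that include 0. Vps13c stood at 44.3 CPM in recovered, 42.4 in S961 and 39.8 in control. Counting a gene as called when its log2 ratio was at least 0.32 in size, 2 of 4 family members were higher and 2 lower in S961 than control, where 14.8% of the 11657 genes measured were higher and 12.6% lower. C2cd4b passed that limit narrowly and fell short of it as a mean of cell CPM (0.18) and thinned to 2000 UMIs per cell (0.27). C2cd4a and C2cd4b were chosen on these values, so nothing is read from the count.

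**Figure D1:**
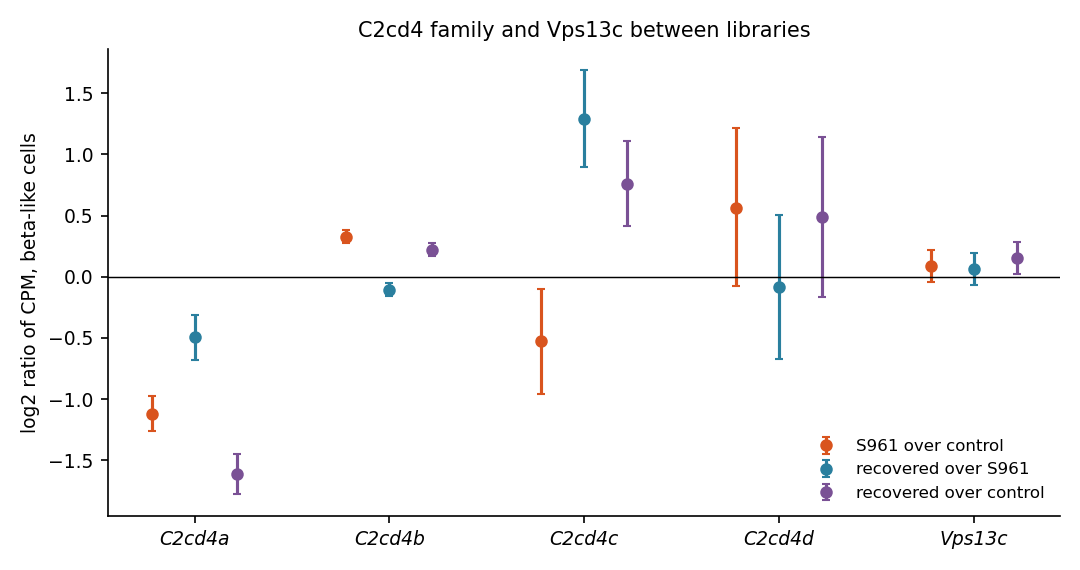
Log2 ratio of CPM in beta-like cells (vertical axis) for the 4 C2cd4 family genes and Vps13c, with 1 point per comparison and exact 95% counting intervals as bars. C2cd4a is the gene whose 3 points all lie below 0, down to -1.61 in recovered over control.

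A smaller share of beta-like cells had a C2cd4a UMI in the libraries from treated mice, although those libraries were deeper per cell. A C2cd4a UMI was seen in 12.4% of recovered (11.0 to 13.8), 17.3% of S961 (15.5 to 19.3) and 24.0% of control cells (22.5 to 25.6). With each cell thinned to 2000 UMIs the shares were 2.95% in recovered, 3.44% in S961 and 8.48% in control, after leaving out 155, 95 and 172 shallower cells. Thinned to 5000 UMIs they were 7.80%, 8.37% and 20.4% in the same order. The recovered and S961 shares have overlapping intervals at 2000 UMIs (2.26 to 3.79 and 2.58 to 4.49), and the control share (7.48 to 9.57) lies above both.

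C2cd4b was detected in most beta-like cells, 72.6% of recovered, 65.6% of S961 and 58.6% of control, and in 34.3%, 32.9% and 29.5% at 2000 UMIs per cell. The upper tail of C2cd4a also differed: 31 recovered, 70 S961 and 134 control cells held at least 3 C2cd4a UMIs, or 1.42%, 4.36% and 4.50% of the beta-like cells. The tenth of cells with the most C2cd4a UMIs held 87.4% of them in recovered, 79.4% in S961 and 66.5% in control. S961 and control thus had like shares of high cells at unequal depth, and their thinned shares differed.

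The genes tended to be found in the same cells. At 5000 UMIs per cell C2cd4b was detected in 74.5% of recovered cells with a C2cd4a UMI (66.7 to 81.3), against 58.7% of recovered cells without one (56.3 to 61.0). In S961 the shares were 80.6% with and 54.4% without, and in control 65.0% with and 50.2% without. Depth per cell was equal within these comparisons. The part of reads that match both genes was not tested.

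C2cd4a differed between libraries in both of the larger beta-like clusters. In the cluster led by Mlxipl, a glucose-responsive transcription factor (1332 recovered, 695 S961 and 1464 control cells), it stood at 12.2 CPM in recovered, 15.4 in S961 and 42.7 in control. In the cluster led by Mt2, a metallothionein, with Ero1l, Bnip3 and Pdyn (575, 391 and 1190 cells), it stood at 29.1 CPM in recovered, 42.0 in S961 and 71.6 in control. Within each library the Mt2-led level was above the Mlxipl-led one. The log2 ratio in S961 over control was -1.47 in the Mlxipl-led and -0.77 in the Mt2-led cluster, and that in recovered over control was -1.81 and -1.30.

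The small clusters gave another picture at low counts. In the shallow cluster led by Gm26917, with 475 of its 726 cells from S961, C2cd4a stood at 11.7 CPM in recovered (4 UMIs), 19.4 in S961 (48 UMIs) and 10.3 in control (3 UMIs), and the interval of S961 over control ran from -0.73 to 3.23. In the cluster led by the heat shock gene Hspa1a it stood at 19.9, 17.9 and 28.3 CPM on 18, 10 and 32 UMIs. C2cd4b in the same Hspa1a-led cells stood at 137 CPM in recovered, 44.7 in S961 and 86.6 in control, the reverse of its order in S961 and control over all beta-like cells. In the Mlxipl-led and Mt2-led clusters C2cd4b kept its order, at 239 and 290 CPM in recovered, 273 and 310 in S961, and 205 and 241 in control.

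**Figure D2:**
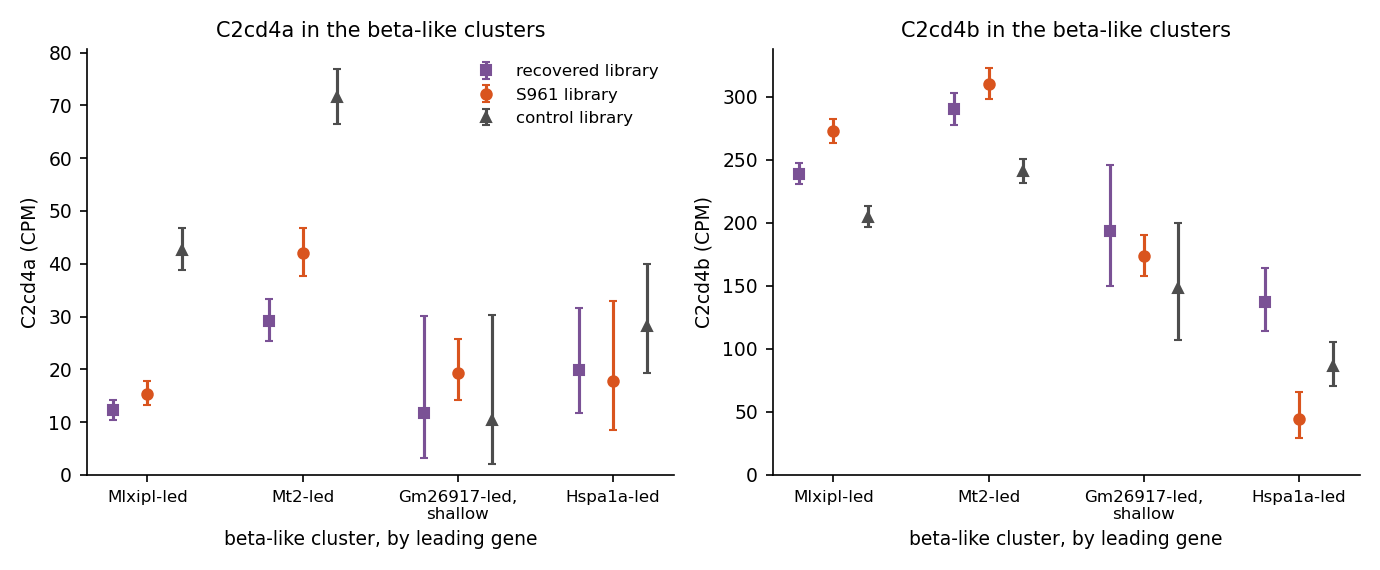
CPM of C2cd4a (left) and C2cd4b (right) in each beta-like cluster, named by its leading gene, in the recovered, S961 and control libraries, with exact Poisson 95% intervals. The control points of C2cd4a stand highest in the Mlxipl-led and Mt2-led clusters, at 42.7 and 71.6 CPM, and the intervals of the Gm26917-led cluster overlap.

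Depth and mitochondrial share differed between the libraries, so C2cd4a was also read within bins of each. Among beta-like cells with 5000 to 10000 UMIs it stood at 15.6 CPM in recovered, 9.67 in S961 and 50.8 in control, and among those with 10000 to 20000 UMIs at 19.7, 22.1 and 66.7 CPM. Control was highest in each of the 4 depth bins, and under 5000 UMIs the S961 over control interval included 0. The recovered over S961 log2 ratio was 0.69 (-0.10 to 1.58) at 5000 to 10000 UMIs and -0.17 (-0.45 to 0.11) at 10000 to 20000. It was -1.63 (-3.35 to -0.25) under 5000 UMIs and -0.82 (-1.36 to -0.32) at 20000 or more. Median mitochondrial shares were 7.15% in recovered, 4.47% in S961 and 6.91% in control. Among cells with 4 to 7% mitochondrial UMIs C2cd4a stood at 20.4 CPM in recovered, 25.8 in S961 and 59.6 in control. The S961 over control log2 ratio lay between -1.50 and -0.89 over the 4 mitochondrial bins.

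**Figure D3:**
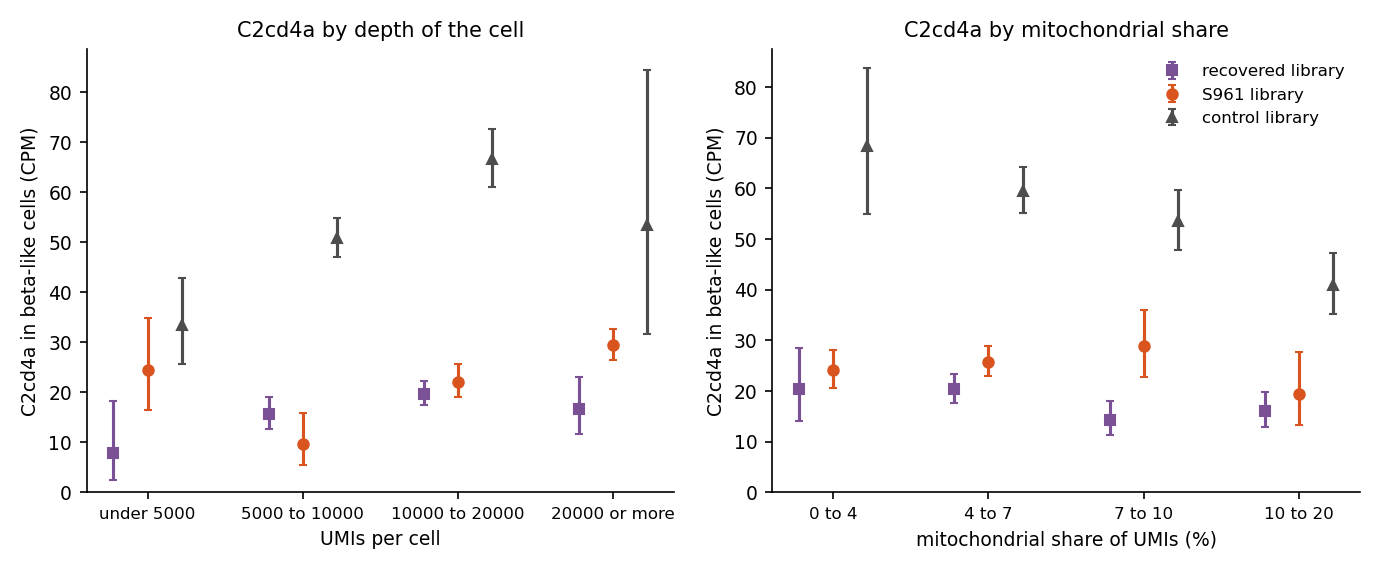
C2cd4a CPM in beta-like cells of the recovered, S961 and control libraries by UMIs per cell (left) and by mitochondrial share of UMIs (right), with exact Poisson 95% intervals. Control is the highest point in every bin, and S961 and recovered change places between 5000 and 10000 UMIs.

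In most of the named classes outside beta-like cells the C2cd4a interval included the level that stray beta-like RNA would give or lay below it, whereas C2cd4b was above it in alpha-like, delta-like and PP-like cells. S961 alpha-like cells and the insulin-poor pseudogene-led cluster described further on held more C2cd4a than that level. The insulin-rich pseudogene-led cluster did so in recovered and S961, and held less in control. That level was taken as the CPM in beta-like cells of the library scaled by the class's insulin share over the beta-like insulin share. It assumes that stray RNA keeps the gene-to-insulin ratio of beta-like cells. In insulin-gated barcodes over 20% mitochondrial, C2cd4b stood at 163 CPM in control (151 to 176), where the formula gives 101. In recovered it was 200 CPM (177 to 224) against 173, and in S961 191 (149 to 242) against 201. Their C2cd4a intervals included the formula's value. Whether stray RNA resembles these barcodes was not tested. In alpha-like cells, which make glucagon, C2cd4a stood at 1.33 CPM in recovered, 3.45 in S961 and 6.64 in control, where 1.11, 0.88 and 7.06 CPM would come from beta-like RNA. A C2cd4a UMI was seen in 0.90% of recovered, 2.42% of S961 and 3.23% of control alpha-like cells, with median depths of 6406, 10222 and 4690 UMIs. In S961 the interval of 1.78 to 6.02 CPM lies above 0.88 CPM, on 12 UMIs.

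Delta-like cells, which make somatostatin, held C2cd4a at 6.51 CPM in recovered, 0.29 in S961 (1 UMI) and 6.66 in control, against 4.59, 0.68 and 14.0 CPM from beta-like RNA. In endothelial-like cells, the human cell type in which the family was first described, C2cd4a had 1 UMI in recovered, 0 in S961 and 6 in control. The control level of 9.57 CPM there stood beside 9.43 CPM from beta-like RNA, and 0 of 214 S961 cells allows a share of cells with a UMI of up to 1.40% (3 counts of the total), which is no limit on cells that express the gene.

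C2cd4b in alpha-like cells stood at 58.0 CPM in recovered, 58.3 in S961 and 61.6 in control, against 15.5, 9.43 and 27.7 CPM from beta-like RNA. In the alpha-like cells with insulin shares under the class median, it stood at 44.7 CPM in recovered, 60.8 in S961 and 46.3 in control, where 7.26, 0.63 and 13.7 CPM would come from beta-like RNA. The alpha-like levels of C2cd4b differed little between libraries, with overlapping intervals. Delta-like cells held C2cd4b at 125.3 CPM in recovered (110 to 143), 95.4 in S961 (85.3 to 106) and 89.1 in control (76.4 to 103), against 64.2, 7.29 and 54.8 CPM from beta-like RNA. The recovered interval lies above the other two. In the low-insulin delta-like cells the levels were 88.4, 83.3 and 71.6 CPM, with overlapping intervals and 8.38, 0.64 and 14.9 CPM from beta-like RNA. PP-like cells, which make pancreatic polypeptide, held 38.6 CPM in recovered, 25.5 in S961 and 41.1 in control. From high to low, C2cd4b in these 4 endocrine classes ran beta-like, delta-like, alpha-like and PP-like in each library, with no allowance for beta-like RNA. The intervals of alpha-like and PP-like cells overlap in recovered and control. Among low-insulin cells, the alpha-like and delta-like intervals overlap in S961 (50.1 to 73.1 and 70.7 to 97.6) and control (30.2 to 67.8 and 55.5 to 90.9).

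Endothelial-like cells held C2cd4b at 4.53 CPM in recovered, 2.57 in S961 and 35.1 in control, near or under the 12.3, 6.07 and 37.0 CPM from beta-like RNA. Stellate- or fibroblast-like cells held 94.6, 47.7 and 76.1 CPM beside 57.7, 33.1 and 84.3 CPM. Insulin took 1.53% of endothelial-like UMIs in recovered, 0.75% in S961 and 5.29% in control, and its part in these levels was not tested. In S961 acinar-like cells, of the exocrine pancreas, C2cd4b stood at 12.3 CPM beside 16.8 CPM from beta-like RNA. In S961 macrophage-like cells it stood at 24.6 CPM (14.1 to 39.9) beside 8.69 CPM. Those 16 UMIs lay in 5 of 81 macrophage-like cells, a spread that the counting interval does not cover. Their source was not tested. Recovered and control held at most 22 macrophage-like cells each, with 0 C2cd4b UMIs. The lymphocyte-led, B-like and ductal-like classes held at most 2 C2cd4a UMIs in any library.

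A pair of clusters with pseudogenes among their leading genes was kept apart from the named classes. The insulin-rich one had 275 recovered, 210 S961 and 217 control cells, with insulin at 56.9%, 54.2% and 56.7% of UMIs. It held C2cd4a at 46.6 CPM in recovered, 77.6 in S961 and 56.5 in control. From beta-like RNA, 32.7, 40.9 and 101 CPM would come in the same order. There C2cd4a was higher in S961 than in control, with a log2 ratio of 0.46 (0.09 to 0.84), the opposite sign to beta-like cells. The balance of the 2 genes also lacked the difference seen in beta-like cells, at 2.79 C2cd4b UMIs per C2cd4a UMI in recovered, 3.08 in S961 and 2.92 in control. The insulin-poor one, led by Calcb, held C2cd4a at 22.2 CPM in recovered (8 UMIs), 42.7 in S961 (21 UMIs) and 83.7 in control (19 UMIs), above the 1.31, 0.50 and 9.06 CPM from beta-like RNA. These cells had median depths of 3550, 4658 and 2270 UMIs and are given no cell type.

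**Figure D4:**
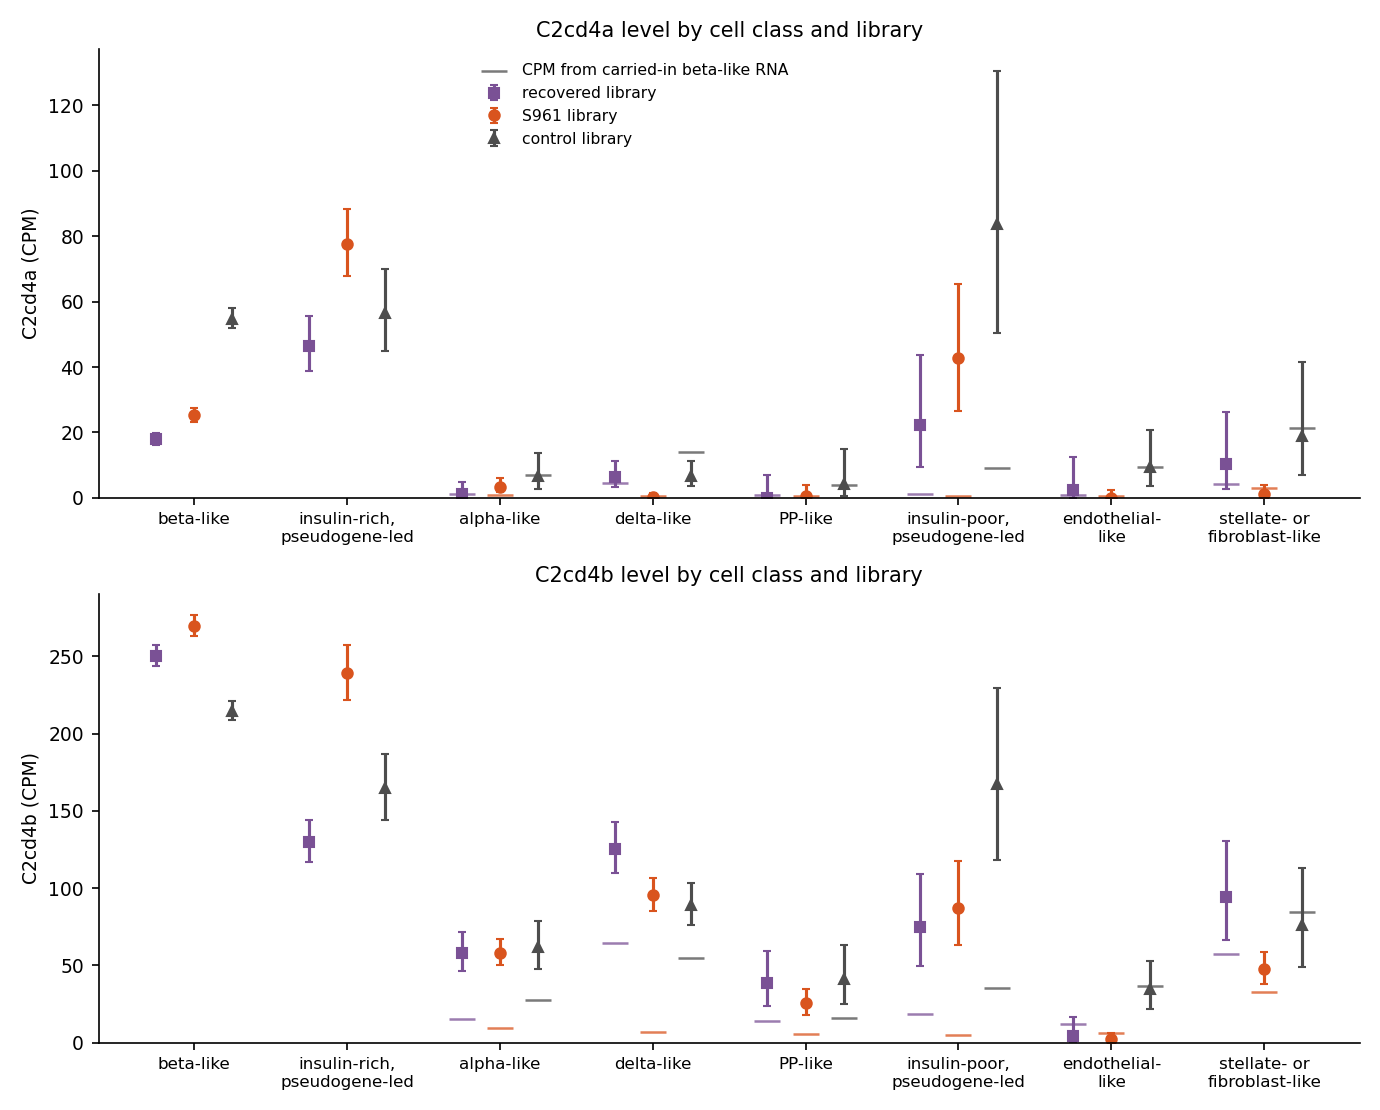
CPM of C2cd4a (top) and C2cd4b (bottom) by cell class in the recovered, S961 and control libraries, with exact Poisson 95% intervals. Horizontal ticks mark the CPM that beta-like RNA would give from the insulin share of the class (not drawn for the first 2 classes). C2cd4b points lie above their ticks in alpha-like, delta-like and PP-like cells, and C2cd4a intervals in those classes include theirs except in S961 alpha-like and control delta-like cells.

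Among beta-like cells the genes most like C2cd4a were its paralog C2cd4b, then Pgk1, Mif, Pkm and Calr. Likeness was the Pearson r of count residuals over the beta-like cells of 1 library, and genes were ranked by the lowest of their 3 library values. The rule chose them on these values, which are a description. Of 5993 genes, 20 had r of at least 0.1 in each library, or 0.334%. The count fell to 0 with Spearman's rho on cells thinned to 2000 UMIs, and to 5 without the Mt2-led and Hspa1a-led clusters, where 3 of the 15 genes named below passed and the lowest r among them was -0.020. The median r over all genes was -0.0015 in recovered, 0.0076 in S961 and -0.0013 in control, and the cells of a library share its depth range and handling. C2cd4b led with r of 0.216 in recovered, 0.239 in S961 and 0.173 in control.

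Pgk1, which encodes phosphoglycerate kinase, had r of 0.160 in recovered, 0.212 in S961 and 0.152 in control. Pkm (pyruvate kinase, 0.144, 0.222 and 0.128) and Pfkp (phosphofructokinase, 0.164, 0.209 and 0.112) are also glycolytic enzymes, Mif encodes a cytokine (0.178, 0.238 and 0.144), and Fh1 is fumarate hydratase. Calr, a calcium-binding chaperone of the endoplasmic reticulum, had r of 0.128, 0.174 and 0.160 in the same order. Manf, Hsp90b1 and Ppib, which also work in that compartment, and Tmed9, a protein of the early secretory pathway, followed. Fam46a, Cd63 (a vesicle membrane protein), Bsg (a partner of lactate transporters) and Pdyn (the precursor of dynorphin peptides) completed the 15. Pdyn, the last inside, had a lowest r of 0.110, and Ubr4, the first outside, of 0.108. All of these are weak correlations, each well under 0.3.

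Several of these genes had lower levels in the libraries from treated mice, as C2cd4a did. Calr stood at 766 CPM in recovered, 569 in S961 and 940 in control. Pdyn stood at 225, 196 and 350 CPM, and Mif at 684, 727 and 933 CPM. Unlike C2cd4a, Calr and Pdyn were higher in recovered than in S961. C2cd4b, the gene most like C2cd4a, went the other way and was above control in both libraries from treated mice. The Mt2-led cluster made up 26.3% of beta-like cells in recovered, 24.4% in S961 and 40.0% in control. Its part in these levels was not tested.

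The genes most unlike C2cd4a were Mlxipl, Pcsk1n (proSAAS, an inhibitor of the proinsulin convertase PC1/3), Wnt4, Tmsb4x, Gstm1, Zbtb20, Zdhhc2 and Fth1. Mlxipl had r of -0.098 in recovered, -0.110 in S961 and -0.105 in control, and 0 genes had r of -0.1 or under in each library. Mlxipl stood at 149.7 CPM in recovered, 129.7 in S961 and 109.6 in control, opposite to C2cd4a. Pdyn and Mlxipl are also among the leading genes of the Mt2-led and the Mlxipl-led cluster. Within the Mlxipl-led cluster alone, 7 genes had r of at least 0.1 in each library, 3 of them among the 15, and C2cd4b had a lowest r of 0.145.

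**Figure D5:**
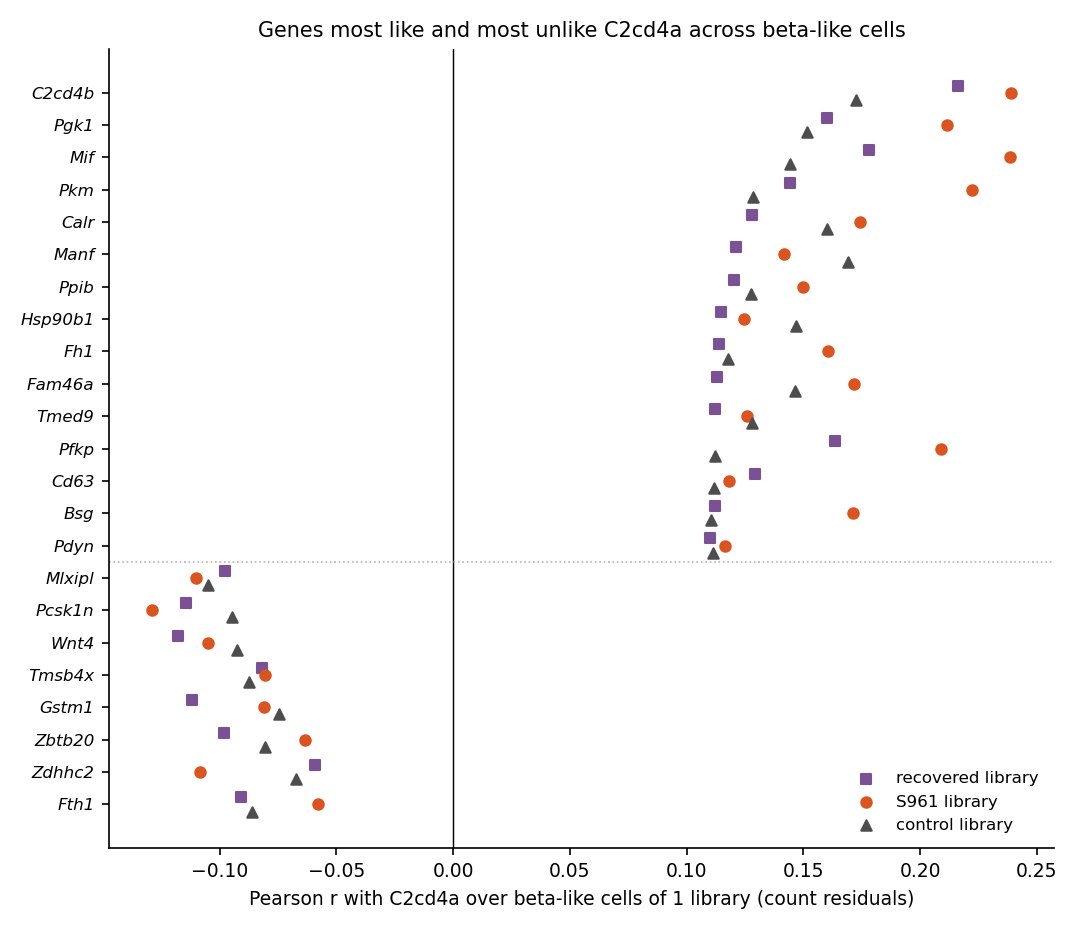
Pearson r with C2cd4a over the beta-like cells of the recovered, S961 and control libraries (horizontal axis) for the 15 most like genes (above the dotted line) and the 8 most unlike (below it). C2cd4b has the highest lowest value, 0.173 in control, and no gene below the line passes -0.13.

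Lists of genes tied to C2cd4a, C2cd4b or the treatment were read in the same beta-like cells. The unfolded protein response list, of stress sensors and chaperones of the endoplasmic reticulum, had 24 measured genes. In S961 over control, 2 were higher and 10 lower, where 14.8% of 11657 genes were higher and 12.6% lower. The median log2 ratio was -0.25, against -0.02 over all genes. Calr (-0.72), Sdf2l1 (-0.73, 212 against 351 CPM), Hyou1 (-0.70) and Dnajb9 (-0.64) were the lowest by the interval bound nearest 0. In recovered over control, 0 were higher and 8 lower (median -0.19), where 11.6% of 11612 genes were higher and 4.37% lower. In recovered over S961, 4 were higher and 2 lower, where 15.2% of 11700 genes were higher and 9.27% lower. Of its 24 genes eligible for the ranking, Calr, Manf, Hsp90b1 and Pdia6 had r of at least 0.1 with C2cd4a in each library. Over all 5993 ranked genes 0.334% did, and no other list besides the family held any. With Spearman's rho on cells thinned to 2000 UMIs, 0 of all ranked genes reached 0.1 in each library. Without the Mt2-led and Hspa1a-led clusters, 5 did.

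FoxO targets and insulin receptor genes, of interest because S961 blocks that receptor, had 5 higher and 4 lower of 25 in S961 than control, near the 14.8% higher and 12.6% lower of all genes. Fbxo32, a ubiquitin ligase that FoxO factors induce, stood at 12.9 CPM in recovered, 14.3 in S961 and 7.15 in control. Txnip, a thioredoxin inhibitor, stood at 48.8, 61.4 and 34.4 CPM, and Cdkn1b, a cell cycle inhibitor, at 49.3, 59.1 and 37.2 CPM. These were higher in both libraries from treated mice. Sgk1, a kinase, was lower in both, at 5.84 CPM in recovered, 4.06 in S961 and 7.99 in control. In recovered, 7 were higher and 1 lower than in S961 (15.2% and 9.27% of all genes), and 7 higher and 2 lower than in control (11.6% and 4.37%). The nuclear NF-kB and cytokine list had 3 higher and 4 lower of 18 in S961 than control, its higher share near the 14.8% of all genes. Lcn2, an iron-scavenging acute phase protein, stood at 2.83 CPM in recovered, 12.9 in S961 and 1.05 in control, and Cxcl16, a chemokine, at 4.29, 3.66 and 8.60 CPM. The list had 1 higher and 7 lower in recovered than in S961, where 9.27% of all genes were lower, and the same counts in recovered over control, where 4.37% were.

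For the next lists the shares of all genes called are again 14.8% higher and 12.6% lower in S961 over control, 15.2% and 9.27% in recovered over S961, and 11.6% and 4.37% in recovered over control. Genes of beta cell identity had 2 higher and 10 lower of 28 in S961 than control, 13 higher and 0 lower in recovered than S961, and 4 higher and 0 lower in recovered than control, the last near the share of all genes. Mafa, a beta cell transcription factor, stood at 368 CPM in recovered, 123 in S961 and 353 in control, and Slc2a2, the glucose transporter, at 117, 40.3 and 96.8 CPM. Both were near or above control after recovery, where C2cd4a was 3.06-fold below it. Disallowed genes, which mature beta cells normally keep low, had 4 higher and 1 lower of 9 in S961 than control, 2 and 2 of 8 in recovered over S961, and 3 and 2 of 8 in recovered over control. Ldha, lactate dehydrogenase, was the 1 disallowed gene called lower in S961 than control, while 4 were higher. It stood at 24.9 CPM in recovered, 29.7 in S961 and 39.9 in control, the order of C2cd4a.

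Genes around the human VPS13C, C2CD4A and C2CD4B locus, read in mouse, had 4 higher and 1 lower of 14 in S961 than control, 1 and 4 in recovered over S961, and 2 and 0 in recovered over control. Lactb stood at 14.4 CPM in recovered, 18.8 in S961 and 12.8 in control, and Tln2, the nearest coding gene beyond C2cd4b, was higher in recovered than control (0.69, 7.03 against 4.34 CPM). No neighbour named here shared the order of C2cd4a. C2-domain and vesicle fusion genes had 2 higher and 3 lower of 25 in S961 than control, 5 and 0 of 25 in recovered over S961, and 4 and 1 of 26 in recovered over control. Sytl4, a granule docking protein, stood at 117 CPM in recovered, 53.3 in S961 and 111 in control. Immediate early and heat shock genes, which respond to dissociation, had 6 higher and 4 lower of 21 in S961 than control, 1 and 5 in recovered over S961, and 1 and 3 in recovered over control. Jun stood at 76.0 CPM in recovered, 162 in S961 and 101 in control, an order unlike that of C2cd4a. Family counts were 1 higher and 1 lower of 4 in recovered over S961, and 2 and 1 in recovered over control.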

How the data were processed

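The values deposited by the authors are counts: whole numbers of UMIs per gene and barcode. The submitters' processing notes name Cell Ranger, without a version, and mm10. The table held 31053 genes and 24590 barcodes, none under 500 UMIs, and 0 columns of other samples. Library totals were 40102058 (recovered), 47651767 (S961) and 38265969 (control) UMIs. Barcodes were assigned by the labelled suffix. Cells needed at least 500 genes and a mitochondrial share of 20% or less. Scrublet (scanpy 1.11.5, expected rate 0.06) removed 24 recovered, 77 S961 and 3 control cells. It called 0.68% of cells in recovered, 2.20% in S961 and 0.07% in control. Each is under the expected rate, so doublets may remain in every library, and in control most of them may. Cells were clustered with leidenalg 0.10.2 (2000 genes, 30 components, 15 neighbours, resolution 0.5) and named from fixed markers, hence "-like". Clusters with processed pseudogenes among the 20 leading genes were kept apart.

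UMIs were summed per class and library and scaled to CPM. Poisson, binomial and conditional binomial (Clopper-Pearson) 95% intervals cover counting error only. Genes with at least 50 UMIs over both libraries were measured. For likeness, genes with a UMI in at least 10% of beta-like cells of each library entered, as negative binomial residuals (theta 100) given the cell total. Mitochondrial, ribosomal protein and unnamed genes were left out. The ratio and likeness steps were tested on simulated data. Named genes were both members, C2cd4c, C2cd4d, Vps13c, the 15 most like and 8 most unlike genes, and up to 4 per list by the interval bound nearest 0. The text names some of these. Tln2 was named for its position. The members and the 9 lists were chosen with earlier results of these data known. Alternatives were other filters, gates, clusters, scalings, depths and thresholds. No protein sequences were used here.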

Additional observations from a re-analysis of the deposited data

Results flagged for a closer look

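In 8 cases a gene's log2 ratio in another cell class had the opposite sign to that in beta-like cells, with both intervals apart from 0. The differences between classes were not tested, and each rests on 1 library per group. C2cd4a in S961 over control was 0.46 in the insulin-rich pseudogene-led cells, against -1.12 in beta-like cells. C2cd4b in S961 over control was -0.94 in the insulin-poor pseudogene-led cells and -3.77 in endothelial-like cells, against 0.33 in beta-like cells. In recovered over S961 it was 0.39 in delta-like and 0.99 in stellate- or fibroblast-like cells, against -0.11 in beta-like cells. In recovered over control it was -0.34 in the insulin-rich and -1.16 in the insulin-poor pseudogene-led cells and -2.95 in endothelial-like cells, against 0.22 in beta-like cells. In delta-like cells insulin took 7.98% of UMIs in recovered and 0.90% in S961. Beta-like RNA would give 64.2 and 7.29 CPM of C2cd4b there. In low-insulin delta-like cells C2cd4b stood at 88.4 CPM in recovered and 83.3 in S961, with overlapping intervals. In endothelial-like cells insulin took 1.53% of UMIs in recovered, 0.75% in S961 and 5.29% in control. In stellate- or fibroblast-like cells it took 7.17%, 4.11% and 12.1%. Endothelial-like cells held only 2, 4 and 22 C2cd4b UMIs in the same order, near or under the level from beta-like RNA. In stellate- or fibroblast-like cells, 37 C2cd4b UMIs lay in 7 of 55 recovered cells and 86 in 12 of 216 S961 cells. The counting intervals do not cover such spread between cells.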

How the results depend on the processing

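Of the first set of alternatives, 58 left a value within its counting interval (or a count or share of genes within 1.5 times), 30 moved it and 1 turned its sign; of those added after seeing the data, 19, 18 and 6 did so. C2cd4a in S961 over control was -0.86 with a hormone gate, -1.38 without the stress-led clusters, -1.31 thinned to 2000 UMIs and -0.82 with the insulin-rich pseudogene-led cells added. In recovered over control it was -1.39 both with the gate and with those cells added, and in recovered over S961 -0.29 when thinned. C2cd4b in S961 over control was 0.18 as a mean of cell CPM, 0.27 thinned and 0.38 without the shallow cluster. In recovered over S961 it was -0.18 with stricter cell limits (1000 genes, 10% mitochondrial), -0.16 with the gate, 0.037 as a mean of cell CPM, -0.17 with median-of-ratios size factors, -0.16 without the shallow cluster and -0.16 with the insulin-rich cells added. Cluster by cluster (added later), in the order Mlxipl-, Mt2-, Gm26917- and Hspa1a-led, C2cd4a was -1.47, -0.77, 0.90 and -0.66 in S961 over control and -1.81, -1.30, 0.18 and -0.50 in recovered over control. In recovered over S961 it was -0.72 in the Gm26917-led and 0.16 in the Hspa1a-led cluster. C2cd4b was 0.41, 0.23 and -0.95 in the Mlxipl-, Gm26917- and Hspa1a-led clusters in S961 over control, and -0.19, 0.16 and 1.62 there in recovered over S961. In recovered over control it was 0.38 in the Gm26917-led and 0.67 in the Hspa1a-led cluster. The cause of these moves was not tested.

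The 20 genes with r of at least 0.1 became 0 with Spearman's rho on thinned cells, 5 without the stress-led clusters and 7 in the Mlxipl-led cluster alone. Genes past 1.5-fold were 8.70% of those measured in S961 over control, against 27.4% past the fold used elsewhere. In cells with insulin under the class median C2cd4b stood at 44.7 CPM (recovered) and 46.3 CPM (control) in alpha-like cells, 88.4, 83.3 and 71.6 CPM (recovered, S961, control) in delta-like cells, and 17.0 and 13.0 CPM (recovered, S961) in PP-like cells. C2cd4a had 0 UMIs there in recovered and S961 delta-like and in every library's PP-like cells. Thinned to 5000 in place of 2000 UMIs, 7.80% of recovered, 8.37% of S961 and 20.4% of control beta-like cells had a C2cd4a UMI and 59.9%, 56.6% and 53.2% a C2cd4b UMI, shares that rise with depth by construction. No paired analysis was possible because each group has 1 library. No library could be left out for the same reason. Low counts limit C2cd4a outside beta-like cells and in the smaller clusters.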

Other observations

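Ranked the same way, a ranking added after the data had been seen, the genes most like C2cd4b over beta-like cells were Rgs4, C2cd4a, Gng12, Pkm, Cebpd, Junb, Ffar1, Btg2, Fos, Dad1, Ubr4, Acly, Pfkp, Cd47 and Igf1r. Rgs4, a regulator of G protein signalling, had r of 0.183 in recovered, 0.261 in S961 and 0.202 in control. Junb, Btg2 and Fos are immediate early genes, none of which is among the 15 most like C2cd4a. Besides the members, the rankings shared 2 genes, Pkm and Pfkp. Rgs4 stood at 101.9 CPM in recovered, 184 in S961 and 157 in control beta-like cells. Ffar1, a fatty acid receptor of beta cells, stood at 98.0, 74.3 and 93.1 CPM.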
